A study of Homo sapiens with 18 samples.

Results

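The aryl hydrocarbon receptor pathway was followed through 8 genes, taken as every transcript spot whose gene name on the array was AHR, ARNT, AHRR, TIPARP, CYP1A1, CYP1A2, CYP1B1 or ALDH3A1. All 8 names were on the array, among 36204 gene names in all, and were read by 12 probes. RNA from 2 human colorectal cancer lines was profiled on 18 one-colour Agilent arrays, with 3 biological replicates in each of 6 groups. HT29 is a colorectal adenocarcinoma line, and HTOXAR3 is its subline with acquired resistance to oxaliplatin (OXA), selected by continuous exposure to rising doses, so that the resistant state is represented by a single derived line. Each line was either untreated (vehicle), or treated for 24 h with OXA, or treated for 24 h with OXA together with Curcumin, a plant polyphenol. The dose of OXA was 10 µM for HT29 but 30 µM for HTOXAR3, whereas each line received Curcumin at 10 µM. The treated lines therefore differed in OXA dose as well as in identity. None of the 18 arrays held cells given Curcumin without OXA, so its effect alone cannot be read from them.

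AHR is a ligand-activated transcription factor of the bHLH-PAS family. Without ligand it is held in the cytoplasm by a chaperone complex, and after binding a dioxin, a dietary indole or a tryptophan metabolite it enters the nucleus, pairs with ARNT and binds short DNA elements near its target genes. Among these are CYP1A1, CYP1A2 and CYP1B1, which encode monooxygenases that oxidise many aromatic compounds, ALDH3A1, which encodes an aldehyde dehydrogenase, and the negative regulators AHRR and TIPARP. The gut is exposed to such ligands from food and from bacteria, and CYP1A1 mRNA is widely used as a readout of receptor activity.

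The core of the element bound by AHR with ARNT, GCGTG, was searched on both strands (CACGC on the other) in the 250 bases before each annotated transcription start, using RefSeq promoter sequences on GRCh38.p14. The table held 9 such windows for 6 of the 8 genes, and had no entry for CYP1B1 and ALDH3A1. The core lay in 4 of the 9 windows, belonging to AHRR, TIPARP and CYP1A1, against 32.2% of all 35116 windows in the table. The longer form TNGCGTG, in which each match also holds the core, lay in 1 of the 9 windows, that of the first AHRR start, against 4.52% of all windows. The windows of 4 genes are shown because their transcripts behaved differently on the arrays, with CYP1A1 and AHRR changing most in HT29 after OXA plus Curcumin and CYP1A2 passing no test. Capitals mark the core on either strand, and each window is written 5′ to 3′ on the strand of its gene.
CYP1A1, chr15:74725529-74725778, minus strand: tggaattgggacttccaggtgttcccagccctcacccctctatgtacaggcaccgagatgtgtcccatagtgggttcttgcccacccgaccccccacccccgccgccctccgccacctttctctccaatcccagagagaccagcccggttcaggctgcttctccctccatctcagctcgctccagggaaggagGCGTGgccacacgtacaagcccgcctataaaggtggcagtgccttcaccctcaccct
CYP1A2, chr15:74748595-74748844, plus strand: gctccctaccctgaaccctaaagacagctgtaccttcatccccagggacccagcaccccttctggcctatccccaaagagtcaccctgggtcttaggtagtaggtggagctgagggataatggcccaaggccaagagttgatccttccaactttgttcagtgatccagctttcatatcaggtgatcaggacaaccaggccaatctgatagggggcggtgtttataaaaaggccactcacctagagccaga
AHRR, chr5:321464-321713, plus strand: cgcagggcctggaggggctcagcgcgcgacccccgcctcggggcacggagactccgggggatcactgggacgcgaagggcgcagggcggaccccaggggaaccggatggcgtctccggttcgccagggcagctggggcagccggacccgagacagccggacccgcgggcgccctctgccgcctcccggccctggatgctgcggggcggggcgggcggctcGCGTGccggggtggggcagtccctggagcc
TIPARP, chr3:156674340-156674589, plus strand: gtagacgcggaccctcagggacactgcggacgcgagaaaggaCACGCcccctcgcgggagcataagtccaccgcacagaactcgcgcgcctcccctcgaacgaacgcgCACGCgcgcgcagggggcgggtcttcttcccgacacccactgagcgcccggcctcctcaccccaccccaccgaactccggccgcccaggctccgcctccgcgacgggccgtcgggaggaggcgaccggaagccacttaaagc
Counted from the start site, the core began at position -57 in CYP1A1, at -30 in this AHRR window and at -208 and -142 in the TIPARP window shown. The other 2 TIPARP windows did not hold the core, and the other AHRR window held it at -247 and -42. A match is a description of letters only, and its absence from the windows shown for CYP1A2, or from those of AHR and ARNT, says nothing of sites elsewhere.

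Levels are given as log2 intensity, the background-corrected brightness of a probe after quantile normalization of the arrays, and a change of 1 is a doubling. They order the groups for a single gene and not the genes among themselves, since each probe has its own brightness. A difference is said to have passed when its limma p-value, adjusted by the Benjamini-Yekutieli method over all gene names, was below 0.05 and its fold change was above 1.2. The probes used for the 8 genes were well above background on all 18 arrays, and none of their spots carried an outlier flag. Over the whole array, 52.4% to 63.6% of the transcript spots were well above background, the lowest share being that of untreated HTOXAR3 replicate 2. Of 10 colon epithelial markers 8 were well above background on all 18 arrays, while CDX2 was so on 10 arrays and CDH17 on 5. Of 8 markers of other cell types, ALB and COL3A1 were not well above background on any array, PECAM1 was on 4, COL1A1 on 10 and CD3E on 17, and 3, among them PTPRC (5.96 to 6.51) and CD14 (10.19 to 11.52), were on all 18, and the part of these markers in the results was not tested. The arrays measured RNA of whole cultures, in which fewer cells with a transcript and less transcript per cell cannot be told apart.

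The first comparison asked how the resistant subline differed from its parent before treatment. Untreated HTOXAR3 had lower levels of the receptor and of 4 of its targets, ALDH3A1, CYP1A1, CYP1B1 and TIPARP, and a higher level of AHRR, the repressor that competes with AHR for ARNT. In all, 6 of the 8 genes passed (5 lower, 1 higher), where 11.5% of all gene names did (5.28% lower and 6.26% higher). The median difference of the 8 genes was -0.57 on the log2 scale, beside -0.03 over all names. ARNT, the shared partner, and CYP1A2 did not pass.

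**Figure D1:**
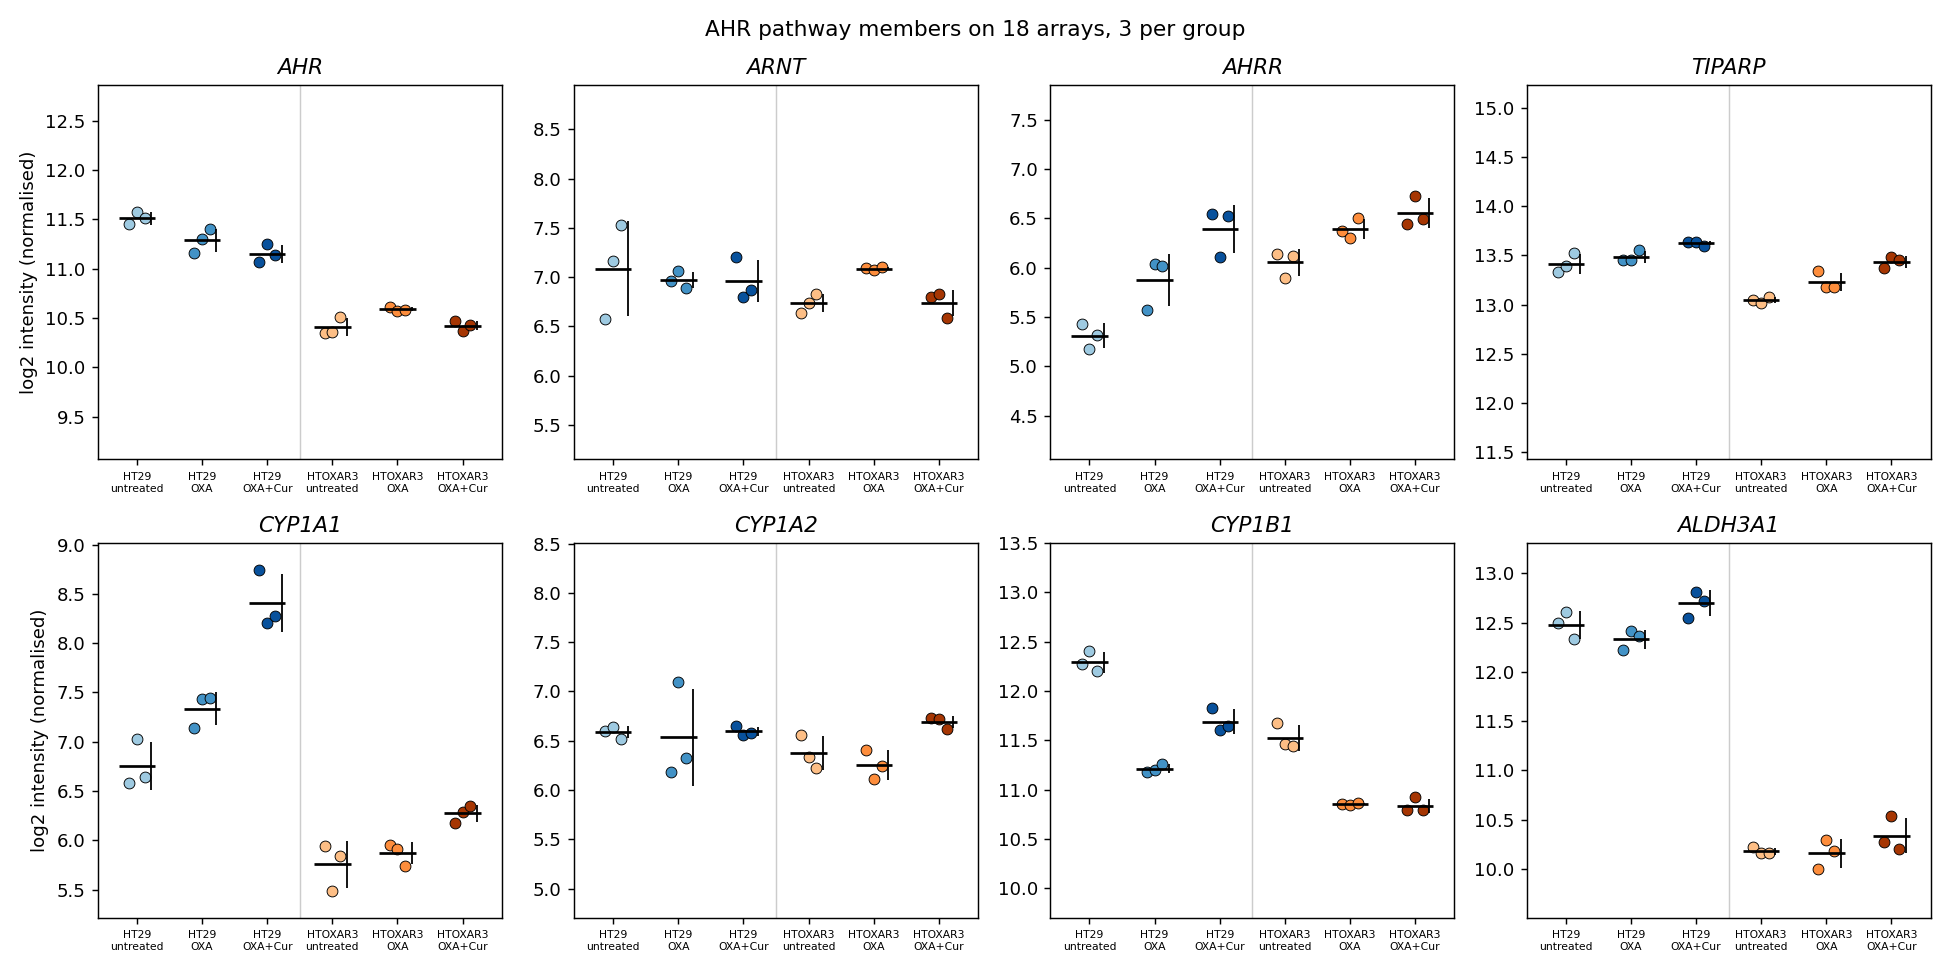
Log2 intensity of the 8 genes (vertical axes, each spanning the same range of log2 units) in the 6 groups (horizontal axes), where points are arrays, horizontal lines are group means and vertical lines are 1 SD, n = 3. ALDH3A1 and AHR lie lower on every HTOXAR3 array than on any HT29 array, CYP1A1 is highest in HT29 after OXA plus Curcumin, and CYP1B1 is highest in untreated HT29.

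ALDH3A1, which oxidises aldehydes from lipid peroxidation, showed the largest difference. Its level was 12.49, 12.61 and 12.33 on the untreated HT29 arrays and 10.22, 10.16 and 10.16 on the untreated HTOXAR3 arrays. The groups did not overlap, and HTOXAR3 was lower by 4.91-fold (log2 difference -2.30 ± 0.11 SE, adjusted p = 2.12e-08). A second probe, which spans 675 bases of the ALDH3A1 locus (the first covers chr17:19641655-19641714 on GRCh37), gave a log2 difference of -2.40 ± 0.10.

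AHR itself read 11.45, 11.58 and 11.51 in untreated HT29 and 10.35, 10.36 and 10.51 in untreated HTOXAR3. The levels did not overlap, and the receptor transcript was 2.14-fold lower in the subline (log2 difference -1.10 ± 0.07 SE, adjusted p = 7.47e-07). The probe lies at chr7:17384999-17385058 on GRCh37, and a second AHR probe, at chr7:17382763-17382822, gave -1.02 ± 0.10.

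CYP1A1 read 6.58, 7.03 and 6.64 in untreated HT29 and 5.94, 5.49 and 5.84 in untreated HTOXAR3. All 3 HTOXAR3 arrays were below all 3 HT29 arrays, by 1.99-fold on average (log2 difference -0.99 ± 0.16 SE, adjusted p = 0.00448). With a normexp offset of 50, which draws low levels together, the log2 difference was -0.60. CYP1B1, an extrahepatic member of the same family, fell from 12.27, 12.41 and 12.20 in untreated HT29 to 11.68, 11.46 and 11.44 in untreated HTOXAR3. This was a log2 difference of -0.77 ± 0.08 SE without overlap (adjusted p = 9.57e-05), and -0.83 ± 0.08 by its second probe.

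TIPARP, a mono-ADP-ribosyltransferase that limits AHR activity, read 13.33, 13.39 and 13.52 in untreated HT29 and 13.05, 13.02 and 13.08 in untreated HTOXAR3. The difference was small but free of overlap (log2 difference -0.37 ± 0.07 SE, adjusted p = 0.00953). It no longer passed without HT29 untreated replicate 3 (adjusted p = 0.0539) or without HTOXAR3 untreated replicate 2 (adjusted p = 0.0585), and a second, dimmer probe that was well above background on 14 of the 18 arrays gave -0.56 ± 0.22 and did not pass (adjusted p = 1).

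AHRR was the single gene of the 8 that was higher in HTOXAR3. It read 5.43, 5.18 and 5.32 in untreated HT29 and 6.14, 5.90 and 6.12 in untreated HTOXAR3, without overlap (log2 difference 0.75 ± 0.15 SE, adjusted p = 0.0205). These are low levels, and the log2 difference was 0.38 with an offset of 50. The call was lost without HT29 untreated replicate 2 (adjusted p = 0.126) or 3 (0.0774), without HTOXAR3 untreated replicate 1 (0.114) or 3 (0.109), and with the slide as a block (0.0596). A readthrough transcript annotated in RefSeq, PDCD6-AHRR, overlaps AHRR, so its RNA may share the probe.

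ARNT read 6.57, 7.16 and 7.53 in untreated HT29, the widest spread of the 8 genes in this group, and 6.64, 6.74 and 6.83 in untreated HTOXAR3. The groups overlapped and the 95% interval of the log2 difference ran from -0.74 to 0.04. For CYP1A2, chiefly a liver enzyme, the levels of 6.52 to 6.64 and 6.22 to 6.56 overlapped and the interval ran from -0.60 to 0.17.

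The slides hold 2, 8 and 8 arrays, and the larger ones contain all 6 groups. Both arrays of the smallest slide were of HT29, so line and slide were partly confounded in the main fit, which had no slide term. Within the larger slides the basal differences kept their direction. On slides 2 and 3 they were -1.22 and -0.99 for AHR, -1.32 and -0.80 for CYP1A1, -0.84 and -0.76 for CYP1B1, -2.42 and -2.17 for ALDH3A1, -0.36 and -0.44 for TIPARP and 0.84 and 0.81 for AHRR. 

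The second comparison asked what OXA did in each line. In HT29 a single gene of the 8 passed, where 15.9% of all names did (7.62% lower), and in HTOXAR3 it was again a single gene, where 10.2% did (4.94% lower). These shares lay near the background. The gene was CYP1B1 in each line. The median difference of the 8 genes was -0.08 in HT29 and 0.14 in HTOXAR3, beside -0.01 and 0.01 over all names.

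CYP1B1 fell in HT29 from between 12.20 and 12.41 on the untreated arrays to 11.18, 11.20 and 11.26 after OXA. This was a 2.11-fold fall (log2 difference -1.08 ± 0.08 SE, adjusted p = 2.85e-06). In HTOXAR3 it fell from between 11.44 and 11.68 to 10.85, 10.84 and 10.86, a 1.60-fold fall (log2 difference -0.67 ± 0.08 SE, adjusted p = 5.13e-04). No treated array reached the lowest untreated array of its line. The second CYP1B1 probe, at chr2:38297706-38297765 on GRCh37, fell by 1.04 in HT29 and by 0.56 in HTOXAR3 on the log2 scale, and within slides 2 and 3 the difference was -1.20 and -0.94 in HT29 and -0.72 and -0.58 in HTOXAR3. The difference between these falls was 0.40 ± 0.12 SE on the log2 scale and did not pass (adjusted p = 1).

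CYP1A1 read 7.14, 7.43 and 7.44 in HT29 after OXA, above all 3 untreated arrays, and the log2 difference of 0.59 ± 0.16 SE did not pass (adjusted p = 0.164). In HTOXAR3 it read 5.95, 5.91 and 5.74, which overlapped the untreated arrays (log2 difference 0.11, 95% interval -0.24 to 0.46). AHRR read 5.57, 6.04 and 6.02 in HT29 after OXA. Its log2 difference of 0.57 ± 0.15 SE did not pass (adjusted p = 0.105) but was 0.72 and passed without HT29 OXA replicate 1 (adjusted p = 0.0186). The receptor read 11.16, 11.30 and 11.40 in HT29 after OXA, with no overlap with the untreated arrays and a log2 difference of -0.22 that did not pass (adjusted p = 0.40). In HTOXAR3 the OXA arrays read 10.61, 10.57 and 10.58 for AHR, and the log2 difference of 0.18 did not pass either (adjusted p = 1). ALDH3A1, TIPARP, ARNT and CYP1A2 had log2 differences between -0.14 and 0.07 in HT29 and between -0.12 and 0.35 in HTOXAR3, and none passed.

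The third comparison set the combination of OXA and Curcumin against untreated cells. In HT29, 4 of the 8 genes passed, where 18.6% of all names did (9.56% higher and 9.02% lower). CYP1A1 and AHRR rose, and AHR and CYP1B1 fell. In HTOXAR3, 2 of the 8 passed, where 17.5% of all names did (8.82% higher and 8.64% lower), with TIPARP higher and CYP1B1 lower. The median difference of the 8 genes was 0.11 in HT29 and 0.23 in HTOXAR3, beside -0.03 and -0.01 over all names. The untreated arrays also served the OXA comparison, so the responses are not independent of each other.

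CYP1A1 reached 8.74, 8.20 and 8.28 in HT29 after the combination. Every array was above every other HT29 array, and the rise over untreated cells was 3.15-fold (log2 difference 1.66 ± 0.16 SE, adjusted p = 2.52e-05), with 1.44 and 1.64 on slides 2 and 3. In HTOXAR3 the combination arrays read 6.18, 6.29 and 6.35 against 5.49 to 5.94 untreated. They did not overlap, but the log2 difference of 0.52 ± 0.16 SE did not pass (adjusted p = 0.299). The probe lies at chr15:75012562-75012621 on GRCh37.

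AHRR read 6.55, 6.11 and 6.52 in HT29 after the combination, above the untreated range of 5.18 to 5.43. This was a 2.12-fold rise (log2 difference 1.09 ± 0.15 SE, adjusted p = 5.26e-04), and the log2 difference was 0.58 with an offset of 50. In HTOXAR3, which started higher, AHRR read 6.44, 6.73 and 6.49, and the log2 difference of 0.50 ± 0.15 SE did not pass (adjusted p = 0.219).

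The receptor read 11.07, 11.25 and 11.14 in HT29 after the combination, a fall of 1.28-fold without overlap with untreated cells (log2 difference -0.36 ± 0.07 SE, adjusted p = 0.0175). The call was lost by the second probe (log2 difference -0.32, adjusted p = 0.319), without HT29 untreated replicate 2 (adjusted p = 0.108) or 3 (0.0625), and without HT29 OXA plus Curcumin replicate 1 (0.105) or 3 (0.0747). In HTOXAR3 the log2 difference of AHR was 0.01, with a 95% interval of -0.14 to 0.17.

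TIPARP read 13.37, 13.48 and 13.45 in HTOXAR3 after the combination, against 13.02 to 13.08 untreated. This was a 1.31-fold rise (log2 difference 0.39 ± 0.07 SE, adjusted p = 0.00422), which brought it within the range of untreated HT29. The dimmer TIPARP probe gave 0.64 ± 0.22 and did not pass (adjusted p = 0.539), and the mean of both probes did not pass either (adjusted p = 0.086). In HT29 the combination arrays read 13.64, 13.64 and 13.60, above the untreated arrays, with a log2 difference of 0.21 that did not pass (adjusted p = 0.258).

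CYP1B1 was again lower in each line after the combination. HT29 read 11.83, 11.60 and 11.64 (log2 difference -0.60 ± 0.08 SE, adjusted p = 5.94e-04), and HTOXAR3 read 10.79, 10.92 and 10.79 (log2 difference -0.69 ± 0.08 SE, adjusted p = 1.80e-04). No combination array reached an untreated array of its line. CYP1A1 and CYP1B1, members of the same enzyme family, thus moved in opposite directions in HT29.

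**Figure D2:**
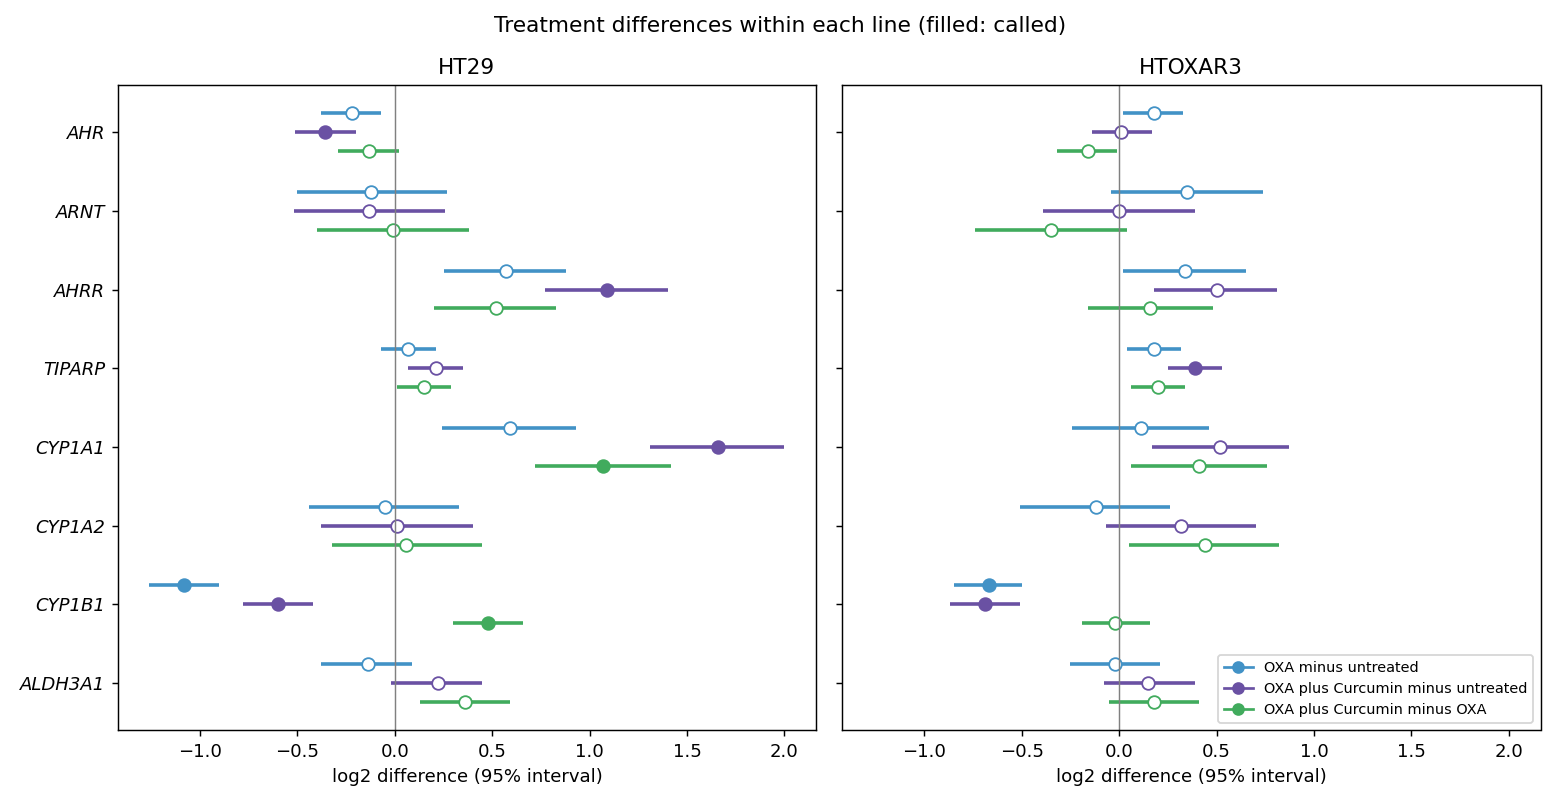
Log2 differences of the 8 genes within HT29 (left) and HTOXAR3 (right), as points with 95% intervals, for OXA minus untreated, OXA plus Curcumin minus untreated and OXA plus Curcumin minus OXA, where filled points passed the test. CYP1B1 lies left of 0 after each treatment in each line, while CYP1A1 reaches 1.66 in HT29 and 0.52 in HTOXAR3 after OXA plus Curcumin.

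The effect of adding Curcumin was read from the OXA plus Curcumin arrays against the OXA arrays of the same line. In HT29, 2 of the 8 genes passed, both higher, where 5.53% of all names did (3.14% higher). CYP1A1 rose 2.10-fold (log2 difference 1.07 ± 0.16 SE, adjusted p = 0.00598), with 1.04 and 0.84 on slides 2 and 3. CYP1B1 rose 1.39-fold, from 11.18 to 11.26 under OXA to 11.60 to 11.83 with Curcumin added (log2 difference 0.48 ± 0.08 SE, adjusted p = 0.0149). The CYP1B1 call was lost by its second probe (log2 difference 0.35, adjusted p = 0.0875), with the slide as a block (0.061), with the processed signal of the scanner software (0.0681), and without HT29 OXA plus Curcumin replicate 1 (0.0889) or HT29 OXA replicate 1 (0.074) or 2 (0.0768). The median difference of the 8 genes was 0.26, beside -0.02 over all names.

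In HTOXAR3, 0 of the 8 genes passed in limma, where 8.83% of all names did, 4 had an unadjusted p under 0.05 and 0 passed with the Benjamini-Hochberg adjustment. CYP1A1 had a log2 difference of 0.41 ± 0.16 SE (adjusted p = 1), and its groups did not overlap, with 5.74 to 5.95 under OXA and 6.18 to 6.35 with Curcumin. CYP1B1 differed by -0.02, with a 95% interval of -0.19 to 0.16. CYP1A2 read 6.73, 6.72 and 6.62 with Curcumin against 6.41, 6.11 and 6.24 under OXA, without overlap, and the log2 difference of 0.44 ± 0.18 SE did not pass (adjusted p = 1).

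Whether the lines responded differently was tested as the difference of their responses. The OXA dose also differed between the lines, so line and dose cannot be told apart in it. None of the 8 genes passed for OXA (1.01% of all names did), for OXA plus Curcumin (0.856%) or for the addition of Curcumin (0.135%) in limma with the Benjamini-Yekutieli adjustment. At an unadjusted p under 0.05 there were 2, 3 and 2 genes. CYP1A1 came closest, with a response to OXA plus Curcumin lower by 1.13 ± 0.23 SE on the log2 scale in HTOXAR3 (95% interval -1.63 to -0.64, adjusted p = 0.163). This difference passed with the Benjamini-Hochberg adjustment (adjusted p = 0.0147) and with an offset of 50 (log2 difference -1.01, adjusted p = 0.0129). For CYP1B1 the effect of adding Curcumin was lower by 0.49 ± 0.12 SE in HTOXAR3 (95% interval -0.74 to -0.24, adjusted p = 0.773). For AHR the response to OXA was higher by 0.40 ± 0.10 SE in HTOXAR3 (adjusted p = 0.601).

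Between the treated lines, which also differed in OXA dose, 4 of the 8 genes were lower in HTOXAR3 under OXA, where 14.1% of all names passed (6.98% lower), and 4 under OXA plus Curcumin, where 13.9% did (6.92% lower). In each condition these were AHR, CYP1A1, CYP1B1 and ALDH3A1. ALDH3A1 kept a log2 difference of -2.18 ± 0.11 SE under OXA (adjusted p = 3.16e-08) and of -2.36 ± 0.11 SE under the combination (adjusted p = 1.53e-08). It read 12.22 to 12.41 in HT29 and 10.00 to 10.29 in HTOXAR3 under OXA, and 12.55 to 12.81 and 10.20 to 10.54 under the combination. In neither line did a treatment change of ALDH3A1 pass.

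The distance between the lines in CYP1A1 was 1.99-fold untreated, 2.77-fold under OXA (log2 difference -1.47 ± 0.16 SE, adjusted p = 1.04e-04) and 4.37-fold under the combination (log2 difference -2.13 ± 0.16 SE, adjusted p = 2.93e-06). With an offset of 50 the log2 difference under OXA was -0.96. AHR differed by -0.70 ± 0.07 SE under OXA and by -0.73 ± 0.07 SE under the combination. CYP1B1 differed by -0.86 ± 0.08 SE under the combination (adjusted p = 2.96e-05) and by -0.36 ± 0.08 SE under OXA, where the call was marginal (adjusted p = 0.0495) and was lost without any single array of the 6 compared (adjusted p from 0.115 to 0.215). AHRR and TIPARP, which passed between the untreated lines, did not pass between the treated lines. Their log2 differences were 0.52 and -0.25 under OXA and 0.16 and -0.19 under the combination.

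**Figure D3:**
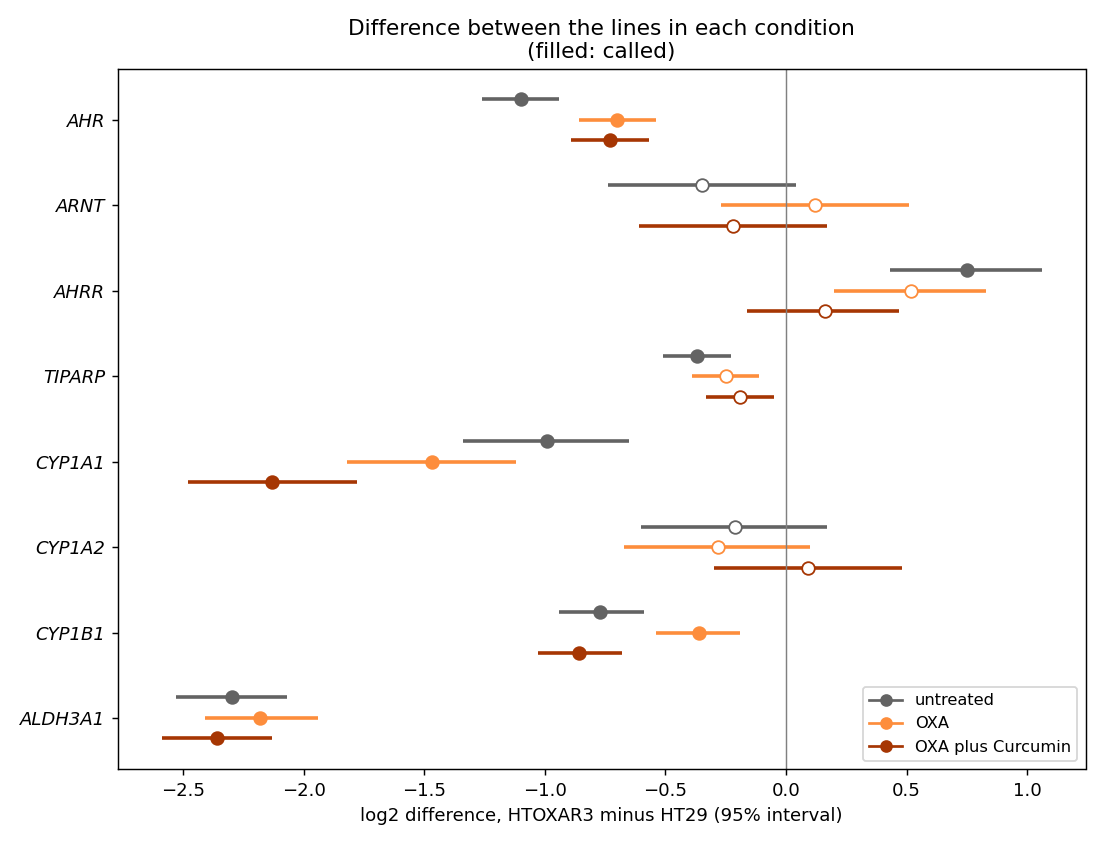
Log2 difference of HTOXAR3 minus HT29 for the 8 genes, as points with 95% intervals, in untreated cells, under OXA and under OXA plus Curcumin, where filled points passed the test. ALDH3A1 stays between -2.36 and -2.18, CYP1A1 goes from -0.99 to -2.13, and AHRR goes from 0.75 to 0.16.

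Ordered by mean level, CYP1A1 was highest in HT29 after OXA plus Curcumin (8.41 ± 0.29 SD, n = 3), followed by HT29 after OXA (7.34 ± 0.17) and untreated HT29 (6.75 ± 0.25). The HTOXAR3 groups followed, with 6.28 ± 0.08 after the combination, 5.87 ± 0.11 after OXA and 5.75 ± 0.23 untreated, and only the last pair of neighbours overlapped. For ALDH3A1 neighbours overlapped within each line, and the gap of 1.99 on the log2 scale lay between the lowest HT29 group and the highest HTOXAR3 group. AHRR had its lowest mean in untreated HT29 (5.31 ± 0.12) and its highest in HTOXAR3 after the combination (6.55 ± 0.16), and each of its upper 3 groups overlapped with the next among them, while HTOXAR3 after OXA did not overlap with untreated HTOXAR3. ARNT group means spanned 0.35 and CYP1A2 means 0.44, with residual SDs of 0.22 for each.

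Second probes were present for AHR, TIPARP, CYP1B1 and ALDH3A1. Of the 17 calls of these genes over the 12 comparisons, the second probe made 13, and it had the same direction in all 17. The 4 calls it did not make were those of AHR and CYP1B1 in HT29 and of TIPARP given above.

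**Figure D4:**
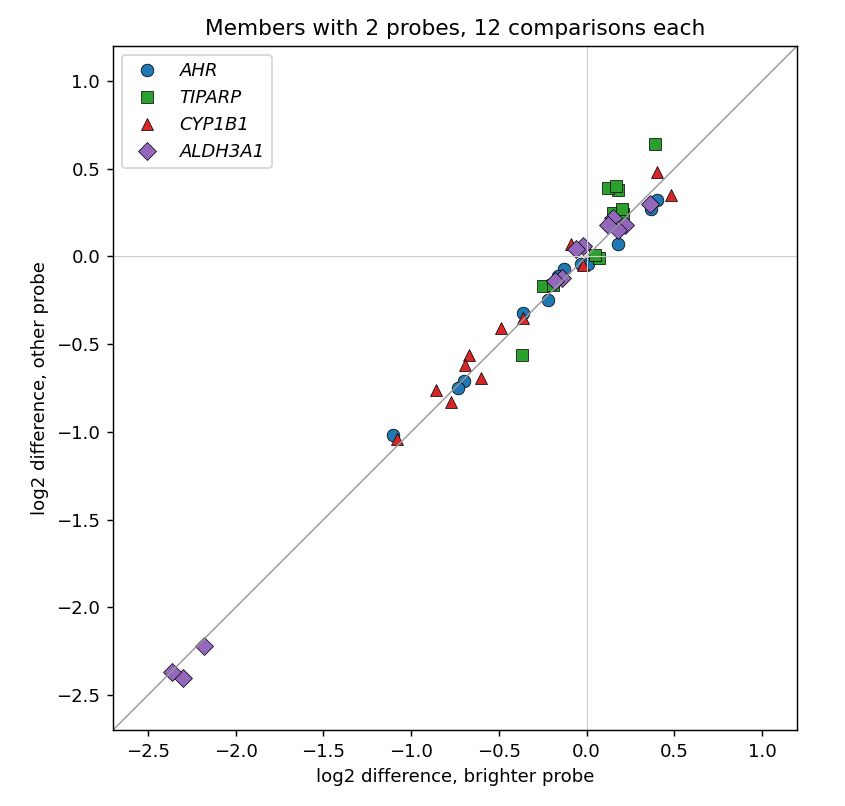
Log2 differences by the brighter probe (horizontal axis) and the other probe (vertical axis) of the 4 genes with a pair of probes, with a point for each of 12 comparisons and the line of equality. AHR, CYP1B1 and ALDH3A1 points lie near the line, from -2.40 at the low end, and the TIPARP points, whose other probe is dim, scatter more.

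Across the 18 arrays, AHR correlated with ALDH3A1 at r = 0.93 and with CYP1A1 at 0.66, CYP1A1 with TIPARP at 0.85 and with ALDH3A1 at 0.85, and AHRR with CYP1B1 at -0.71. The arrays share groups and normalization, so these values describe the group pattern only. Among 21368 names well above background on at least 9 arrays, those most like CYP1A1 over the 18 arrays were FAM83E (r = 0.969), TUBA3C (0.965), PLA2G10 (0.963), a probe without a gene symbol, A_21_P0014013 (0.958), and C11orf52 (0.957). PLA2G10, a secreted phospholipase, for example had group means of 8.13, 8.87 and 9.73 in HT29 and of 6.01, 6.32 and 7.07 in HTOXAR3, in the order untreated, OXA and OXA plus Curcumin. Those most like AHR were ANO1 (0.982), GNAI1 (0.980), TFF3 (0.977), IGFBP7 (0.975) and SPINK4 (0.975). TFF3, a trefoil peptide of goblet cells, had means of 11.45 in untreated HT29 and 8.47 in untreated HTOXAR3.

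The chaperones and co-activators of the receptor were well above background on all arrays for all 8 genes listed. In HT29 1 of the 8 was higher and 1 lower after OXA, where 15.9% of all names passed, and the same after the combination, where 18.6% did. The lower gene was PTGES3, the p23 co-chaperone, by 0.54 after OXA and by 0.52 after the combination. Between the lines 2 were higher and 1 lower in HTOXAR3 under OXA (14.1% of all names passed), and 3 higher and 1 lower under the combination (13.9%). Among the higher was HSP90AB1, which encodes an HSP90 chaperone, by 0.39 under OXA and by 0.50 under the combination. On adding Curcumin 0 of the 8 passed in limma in either line, where 5.53% of all names did in HT29 and 8.83% in HTOXAR3, and at an unadjusted p under 0.05 there were 0 in HT29 and 1 in HTOXAR3.

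Of 14 other reported AHR targets 13 were on the array, 9 of them well above background on all arrays and 2 on none. Between the untreated lines 6 of the 13 passed, 2 higher and 4 lower (11.5% of all names passed, 6.26% higher and 5.28% lower), with a list median of -0.48 beside -0.03 over all names. XDH, xanthine dehydrogenase, was 4.51-fold higher in HTOXAR3 (log2 difference 2.17 ± 0.13 SE), while CYP2S1, a further P450, was lower by 0.78 and ABCG2, a drug efflux pump, by 0.73 in log2 difference (-0.78 ± 0.07 SE and -0.73 ± 0.11 SE). After OXA 6 of the 13 passed in HT29 (2 higher, 4 lower), where 15.9% of all names did, and 5 in HTOXAR3 (2 higher, 3 lower), where 10.2% did. ABCG2 fell by 1.52 and 1.49 on the log2 scale in HT29 and HTOXAR3, and CYP2S1 rose by 1.08 and 1.01. SLC7A5, an amino acid transporter, fell by 1.53 in HT29. Its response to OXA differed between the lines, which also differed in OXA dose (log2 difference 0.86 ± 0.09 SE, adjusted p = 8.30e-04). Its response to the combination differed as well (0.60 ± 0.09 SE, adjusted p = 0.0239). In each case it was the single gene of the 13 to pass (7.69%), beside 1.01% of all names for OXA and 0.856% for the combination.

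On adding Curcumin to OXA 2 of the 13 passed in HT29, where 5.53% of all names did, and 2 in HTOXAR3, where 8.83% did. NQO1, a quinone reductase that also answers to NRF2, rose by 0.59 ± 0.06 SE in HT29 and by 0.76 ± 0.06 SE in HTOXAR3 on the log2 scale. UGT1A6, a glucuronosyltransferase, fell by 0.87 in HTOXAR3, and since the UGT1A genes share exons, their transcripts may not be told apart by this probe. Between the lines under the combination 9 of the 13 passed (4 higher and 5 lower in HTOXAR3), or 69.2% of the list beside 13.9% of all names. XDH was higher in HTOXAR3 by 2.29 ± 0.13 SE and SLC7A5 by 0.94 ± 0.06 SE on the log2 scale. SCIN, an actin-severing protein, was lower in HTOXAR3, where no array had it well above background, and passed that level on 2 of the 3 HT29 arrays of the combination, where it was at least 1.68-fold higher on average over the 3 (adjusted p = 0.019). The lower limit sets the dim group at the lowest signal well above background on each array, or at the probe's own level where that was higher.

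Of 13 other bHLH-PAS factors 5 passed between the untreated lines, 4 higher and 1 lower, beside 11.5% of all names (6.26% higher and 5.28% lower). HIF1A, the hypoxia factor that also pairs with ARNT, was higher in HTOXAR3 by 0.86 ± 0.05 SE, the circadian factor CLOCK was higher by 0.61 ± 0.08 SE, and its partner ARNTL had a log2 difference of -0.52 ± 0.08 SE. After the combination 5 of the 13 passed in HT29 (3 higher, 2 lower), where 18.6% of all names did, and 5 in HTOXAR3 (4 higher, 1 lower), where 17.5% did. NPAS1 rose by 1.36 in HT29 and 1.24 in HTOXAR3, EPAS1, another hypoxia factor, rose by 1.10 and 0.76, and NPAS2, a relative of CLOCK, had log2 differences of -0.75 ± 0.11 SE in HT29 and -0.57 in HTOXAR3 and passed in each. NPAS1 was also the single member of this list to pass on adding Curcumin, with rises of 0.81 in HT29 and 0.79 in HTOXAR3, and 1 of 13 (7.69%) lay near the 5.53% and 8.83% of all names. For the differences in response between the lines 0 of the 13 passed in limma, beside 1.01% of all names for OXA, 0.856% for the combination and 0.135% for the addition of Curcumin, and at an unadjusted p under 0.05 there were 4 for OXA, 5 for the combination and 1 for the addition of Curcumin.

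Among 7 enzymes of tryptophan breakdown, some of which form AHR ligands, a single gene passed between the untreated lines. At 14.3% of the list this lay near the 11.5% of all names. The gene was TDO2, which catalyses the first step to kynurenine. It was not well above background on any HT29 array and was on all 9 HTOXAR3 arrays, where it was at least 5.18-fold higher untreated (adjusted p = 9.81e-06), at least 4.04-fold higher under OXA and at least 3.70-fold higher under the combination. IL4I1, an amino acid oxidase that forms indole-3-pyruvate, rose after OXA by 0.48 ± 0.09 SE in HT29 and by 1.35 ± 0.09 SE in HTOXAR3. This difference between the lines, which also differed in OXA dose, passed (0.87 ± 0.12 SE, adjusted p = 0.0115), as 1 of the 7 (14.3%) beside 1.01% of all names. After OXA 2 of the 7 passed in HT29 (1 higher, 1 lower), where 15.9% of all names did, and 1 in HTOXAR3, where 10.2% did. On adding Curcumin 1 of the 7 passed in each line, where 5.53% and 8.83% of all names did, and IL4I1 fell by 0.68 in HTOXAR3, and KYNU, kynureninase, rose by 0.75 in HT29.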

How the data were processed

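RNA labelled with Cy3 was hybridised to 18 Agilent arrays, which were read with Agilent Feature Extraction 10.7.3.1. For each array the authors deposited the mean intensity of every spot, the median intensity of its local background and a processed intensity, without normalization between arrays. A table of the authors' processed values, whose lines carry no probe names, was not used here. Groups came from the sample labels. The mean intensity was corrected with normexp (offset 0), after which control spots were dropped, and log2 values of the deposited intensities were quantile normalized, as the methods of the study name. Spots with outlier flags were set to missing, spots of a probe averaged, and each of 36204 names was read by its brightest probe on average, out of 50599 probes. A model with 6 group terms was fitted with limma 3.58.1 in R 4.3.3 (package data.table, version 1.17.8). Names passed at a Benjamini-Yekutieli adjusted p below 0.05 and a fold above 1.2. The fit was tested on simulated data. Motifs were searched with pandas 2.3.3 and plots drawn with matplotlib 3.10.9 (Python 3.11.15).

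The members, gene lists and alternatives were chosen with earlier results of these data known. Genes named were the 8 members, at most the 3 genes of each list with the largest change that passed in a comparison, and the 5 names most like CYP1A1 and AHR. Lists came from general knowledge, and the values of 2 listed genes are not reported here. Scan times and slides split the arrays alike. The highest correlation between any 2 arrays was 0.995, so none was a copy of another, but this cannot show that each had its own library. Same-numbered replicates correlated above 0.1 in their deviations in every pair when OXA was compared with untreated cells in HT29 (0.118 to 0.241) and when Curcumin was added in HTOXAR3 (0.108 to 0.194), but not otherwise, and no source used here describes a pairing. The alternatives were offsets of 16 and 50, processed intensity or normexp with scaling to the 75th percentile, all probes averaged or each on its own, dim probes left out, Benjamini-Hochberg adjustment, a fold minimum of 2, a replicate block, the slide as a block, fits within slides, fits of only the groups compared, and leaving out each array.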

Additional observations from a re-analysis of the deposited data

How the results depend on the processing

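No difference that passed in the 8 genes, 24 over 12 comparisons, changed direction under any alternative tried. With the replicate block 23 of the 24 passed, the one lost being CYP1B1 between the lines under OXA (adjusted p = 0.0702), and no other call changed. For the comparisons in which same-numbered replicates correlated above 0.1, OXA in HT29 and the addition of Curcumin in HTOXAR3, the block left 1 and 0 genes. In these comparisons the same-numbered arrays also shared a slide, so replicate number and slide cannot be told apart.

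The number of the 8 genes that passed changed as follows. With an offset of 50, 1 gene (CYP1A1) passed for the line difference in the combination response. With the processed signal 2 passed for OXA in HT29 and 1 for the addition of Curcumin in HT29. With the mean of all probes 1 passed for the combination in HTOXAR3 and 5 between the untreated lines, and with dim probes left out 2 passed for OXA in HT29. With the Benjamini-Hochberg adjustment 3 passed for OXA in HT29, 4 for the combination in HTOXAR3, 4 for the addition of Curcumin in HT29, 1 for the line difference in the combination response and 5 between the lines under OXA. With a fold minimum of 2, 2 passed between the untreated lines, 0 for OXA in HTOXAR3, 2 for the combination in HT29, 0 for it in HTOXAR3, 1 for the addition of Curcumin in HT29, 2 between the lines under OXA and 2 under the combination. With the slide as a block 1 passed for the addition of Curcumin in HT29, 5 between the untreated lines (AHRR lost, adjusted p = 0.0596) and 3 between the lines under OXA. The count between the lines under OXA was also 3 with the processed signal, with normexp scaled to the 75th percentile and with all probes tested singly and the same probe read, CYP1B1 being the gene lost in each case (adjusted p from 0.0591 to 0.152). Tested singly, the other CYP1B1 probe passed (adjusted p = 0.0393). When only the groups compared were fitted, 2 passed between the untreated lines, 0 for OXA in HTOXAR3, 1 for the combination in HT29, 0 for it in HTOXAR3, 0 for the addition of Curcumin in HT29 and 2 between the lines under OXA, from 4 residual degrees of freedom. Within slide 2 and within slide 3, with 2 residual degrees of freedom each, 0 passed in every comparison, as did 0 of all names by limma, so the calls could not be tested there. Over the comparisons 2662 to 9027 names had an unadjusted p under 0.05. At that level there were 6 and 7 of the genes between the untreated lines (6839 and 6977 of all names). For OXA in HT29 there were 1 and 4 (7270 and 7692), and for the addition of Curcumin in HT29 2 and 1 (4386 and 4691). Elsewhere the cause of these changes was not tested.

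Leaving out each array in turn gave 4 to 6 genes between the untreated lines, 1 to 2 for OXA in HT29, 3 to 4 for the combination in HT29, 1 to 2 for the addition of Curcumin in HT29 and 3 in every case between the lines under OXA. The other counts were unchanged, with 1 for OXA in HTOXAR3, 2 for the combination in HTOXAR3, 4 between the lines under the combination and 0 for the remaining 4. With scaling to the 75th percentile the median difference of all names reached -0.19 (OXA in HTOXAR3, processed signal), where it was 0.01 with quantile normalization. Precision is limited by having 3 arrays in a group, and among the genes that changed AHRR and CYP1A1 had the largest residual SDs (0.18 and 0.20 on the log2 scale).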
